A study of Mus musculus with 18 samples.

Results

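*Tymp* and *Sco2* are neighbouring genes on mouse chromosome 15. The pair was chosen from the deposited values themselves, because the signal of both differed by diet and by genotype. It was also chosen because the starts of its probes lie 0.146 kb apart. Its differences between groups are therefore given here as descriptions without a test. The members are all array probes named *Tymp* or *Sco2*, which came to 2 of the 56605 probes on the array, 1 for each gene, or 2 of 37074 gene names. Both passed the filter on dim probes.

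Expression was measured on Agilent one-colour arrays in cells released from the ileum of 18 male mice, with 1 array per mouse. There were 6 mice in each of 3 groups, namely iPGC1afl/fl CHOW, iPGC1afl/fl HFD and iPGC1a-/- HFD. All mice were on a C57BL6/J background and carried floxed alleles of *Ppargc1a*, which encodes the mitochondrial biogenesis coactivator Pgc1α. In iPGC1a-/- mice a Cre recombinase driven by the Villin promoter removes part of the gene in the intestinal epithelium, while their iPGC1afl/fl littermates have no Cre. Mice were 8 weeks old at the start and stayed 8 weeks on chow or on a high-fat diet (HFD) with 42% of calories from fat and 0.2% cholesterol. They were killed at ZT 3. The study's methods state an overnight fast before killing, but the labels differ from the methods on whether the mice were fasted. Mice labelled iPGC1a-/- on chow were not analysed here, so an effect of diet in that genotype, or of genotype on chow, was not computed. The cells were collected by chelation and shaking, and the labels describe no sorting step. Each of 3 slides held 2 arrays of every group.

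*Tymp* encodes thymidine phosphorylase, a cytosolic enzyme that splits thymidine and deoxyuridine into the base and deoxyribose phosphate. Its loss in humans lets thymidine accumulate and damages mitochondrial DNA, with the gut among the organs most affected. *Sco2* encodes a copper chaperone of the inner mitochondrial membrane that helps to build the copper site of cytochrome c oxidase, the last complex of the respiratory chain. Both products therefore bear on the respiratory chain, by separate routes.

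The probe sequences come first because they define what each signal can report. On the array's annotation (mm9) the *Tymp* probe lies at chr15:89202362-89202421 and the *Sco2* probe at chr15:89202216-89202275, both on the minus strand with 86 bases between them. Nothing is set in capitals in these runs.
*Tymp* probe: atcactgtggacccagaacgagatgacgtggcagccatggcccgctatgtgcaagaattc
*Sco2* probe: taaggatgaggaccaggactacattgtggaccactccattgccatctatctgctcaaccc
The array's annotation lists the probe named *Tymp* under a *Tymp* transcript and also under a *Sco2* transcript. The probe named *Sco2* is listed under *Sco2* transcripts alone. In RefSeq (GRCm38.p6) the span of *Sco2* lies within that of *Tymp* on the same strand apart from 1 base, so 99.96% of it is shared, and both end at nearly the same place. No probe on the array is therefore annotated to *Tymp* alone, whereas both member probes are listed under the same *Sco2* transcript. From these arrays a change of *Tymp* RNA and a change of a *Sco2* transcript that covers both probes cannot be told apart. Both signals may read *Sco2* RNA alone, so a higher signal of the probe named *Tymp* does not show that RNA for thymidine phosphorylase rose. Below, each gene name stands for the signal of the probe that carries it.

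Although the genes share an end, they have separate start sites in RefSeq. The 250 bases before each start are shown on the minus strand of GRCm38.p6, because they are where the loci differ. Capitals mark the letters CCAAT, the CCAAT box, on either strand.
*Tymp* upstream, chr15:89377037-89377286: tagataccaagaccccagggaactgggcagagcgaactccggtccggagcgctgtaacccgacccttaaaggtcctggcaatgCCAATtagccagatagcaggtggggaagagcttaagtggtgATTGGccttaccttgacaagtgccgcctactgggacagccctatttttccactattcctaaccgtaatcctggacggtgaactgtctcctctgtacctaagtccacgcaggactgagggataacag
*Sco2* upstream, chr15:89373892-89374141: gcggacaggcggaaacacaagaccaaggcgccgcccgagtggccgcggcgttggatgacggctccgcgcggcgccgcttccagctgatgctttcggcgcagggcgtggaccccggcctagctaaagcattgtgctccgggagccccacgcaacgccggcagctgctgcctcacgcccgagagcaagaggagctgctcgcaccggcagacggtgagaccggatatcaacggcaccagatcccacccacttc
The *Tymp* window held 2 matches to CCAAT and the *Sco2* window none, where 33.8% of all 32851 such windows hold at least 1. The *Sco2* window held 1 match to the GC box GGGCGG, present in 32.7% of windows, and the *Tymp* window none. CG pairs numbered 29 in the *Sco2* window and 9 in the *Tymp* window, against a median of 6 over all windows. The bases G and C made up 68.4% of the first and 53.6% of the second. Searched on both strands, the estrogen-related receptor core AAGGTCA (4.08% of windows), the ETS core CCGGAA (12.03%), the E-box CACGTG (6.02%) and the interferon gamma activated site TTCNNNGAA (7.02%) had no match in either window.

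The signal of both probes was lowest in iPGC1afl/fl CHOW, intermediate in iPGC1afl/fl HFD and highest in iPGC1a-/- HFD. Levels are log2 median spot intensities after normalisation between arrays. *Tymp* ranged from 10.11 to 11.01 with a median of 10.51 in iPGC1afl/fl CHOW, from 11.07 to 11.43 with a median of 11.29 in iPGC1afl/fl HFD, and from 11.85 to 12.71 with a median of 12.31 in iPGC1a-/- HFD. *Sco2* ranged from 10.94 to 11.85 with a median of 11.40 in iPGC1afl/fl CHOW, from 11.92 to 12.27 with a median of 12.10 in iPGC1afl/fl HFD, and from 12.69 to 13.37 with a median of 13.11 in iPGC1a-/- HFD. For either probe, neighbouring groups in this order did not overlap. No overlap with higher values on HFD was seen for 5.11% of the 21516 gene names tested, and no overlap with higher values in iPGC1a-/- HFD for 0.321%. The pair was chosen on these contrasts, so nothing is read from those shares.

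**Figure D1:**
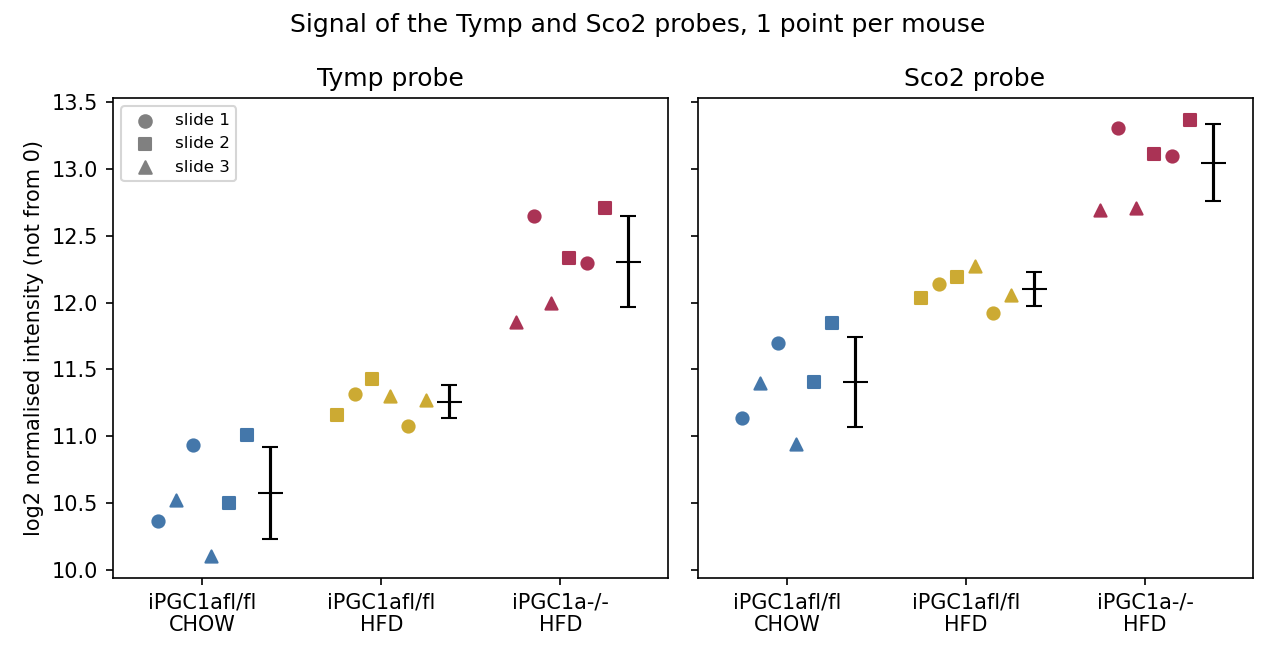
Log2 normalised intensity (vertical axis, not from 0) of the *Tymp* and *Sco2* probes in each of the 18 mice by group, with 1 point per mouse, point shape for the slide, and the mean with its SD (n = 6) at the right of each group. Both probes climb in the same 3 steps, and the 2 iPGC1a-/- HFD mice on slide 3 (triangles) are the lowest of their group.

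The unprocessed signal was well above the local background in all 18 arrays for both probes. The raw median intensity of *Tymp* spanned 1169 to 2359 in iPGC1afl/fl CHOW, 1839 to 2914.5 in iPGC1afl/fl HFD and 3272 to 7456 in iPGC1a-/- HFD. That of *Sco2* spanned 2059 to 4156.5, 3173 to 5760.5 and 5765 to 12792 in the same order, and no spot on the arrays was saturated. The local background was between 17 and 23 units at either probe. Before normalisation the iPGC1afl/fl CHOW and iPGC1afl/fl HFD ranges overlapped, whereas the iPGC1a-/- HFD range stayed above that of iPGC1afl/fl HFD.

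With HFD, *Tymp* was higher by 0.68 on the log2 scale (SE 0.15), from a mean of 10.57 ± 0.34 (SD, n = 6) to 11.26 ± 0.12 (SD, n = 6). *Sco2* was higher by 0.70 (SE 0.14), from 11.41 ± 0.34 (SD, n = 6) to 12.10 ± 0.12 (SD, n = 6). In the arrays labelled iPGC1a-/- HFD, *Tymp* was higher by a further 1.05 (SE 0.15), at 12.31 ± 0.34 (SD, n = 6), and *Sco2* by 0.95 (SE 0.14), at 13.05 ± 0.29 (SD, n = 6). Between the outer groups the differences were 1.73 for *Tymp* and 1.64 for *Sco2*. The contrasts share the iPGC1afl/fl HFD arrays. Both probes passed the threshold of adjusted p of 0.05 or lower and fold change above 1.5 in both contrasts, as the choice of the pair required. As both may read the same RNA, this does not count as a change of 2 genes. By diet that threshold called 9.1% of the 21516 gene names tested (3.53% higher), and by genotype 0.163% (0.0883% higher). Higher in both contrasts were 7 gene names, or 0.0325%, the pair included.

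The spread between mice was narrowest in iPGC1afl/fl HFD for both probes, with an SD of 0.12 against 0.29 to 0.34 in the other groups. The difference by slide was uneven. By genotype *Tymp* differed by 1.28, 1.23 and 0.64 on slides 1, 2 and 3, and *Sco2* by 1.17, 1.13 and 0.54. By diet the order turned, with 0.55, 0.54 and 0.97 for *Tymp* and 0.61, 0.48 and 0.99 for *Sco2*. Slide 3 therefore held the smallest genotype difference and the widest diet difference of both probes, with 2 mice per group behind each value. Leaving slide 3 out gave genotype differences of 1.26 (SE 0.15) for *Tymp* and 1.15 (SE 0.14) for *Sco2*, and diet differences of 0.55 (SE 0.15) and 0.55 (SE 0.14). On every slide, all values of iPGC1a-/- HFD lay above those of iPGC1afl/fl HFD, and these above iPGC1afl/fl CHOW.

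The readings of the probes moved together from mouse to mouse. The group differences behind the choice do not enter these values, but the closeness of the probes was part of that choice. Both probes are listed under a *Sco2* transcript, so a high correlation could be foreseen. Its p-values are therefore no separate support for the pair. After subtracting group means, Pearson's r between them was 0.972 and Spearman's rho 0.967 over 18 mice (permutation test within groups, two-sided, p = 1e-05 for each, the smallest that 100000 permutations can give; adjusted p = 4e-05 over 4 correlations). Within iPGC1afl/fl CHOW r was 0.987 (exact permutation p = 0.0028, adjusted 0.0037), and within iPGC1a-/- HFD it was 0.984 (exact permutation p = 0.0014, adjusted 0.0028). Within iPGC1afl/fl HFD, where the values varied least, r was 0.824 (exact permutation p = 0.046, adjusted 0.046) and rho 0.829 (exact permutation p = 0.058). Without the 2 mice farthest from the median, iPGC1afl/fl CHOW replicate 4 and iPGC1a-/- HFD replicate 1, r was 0.958. Within slides 1, 2 and 3, r was 0.982, 0.987 and 0.897 over 6 arrays each. Both probes may hybridise the same RNA, as their annotation shows, so this correlation does not tell 2 genes from 1 transcript.

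**Figure D2:**
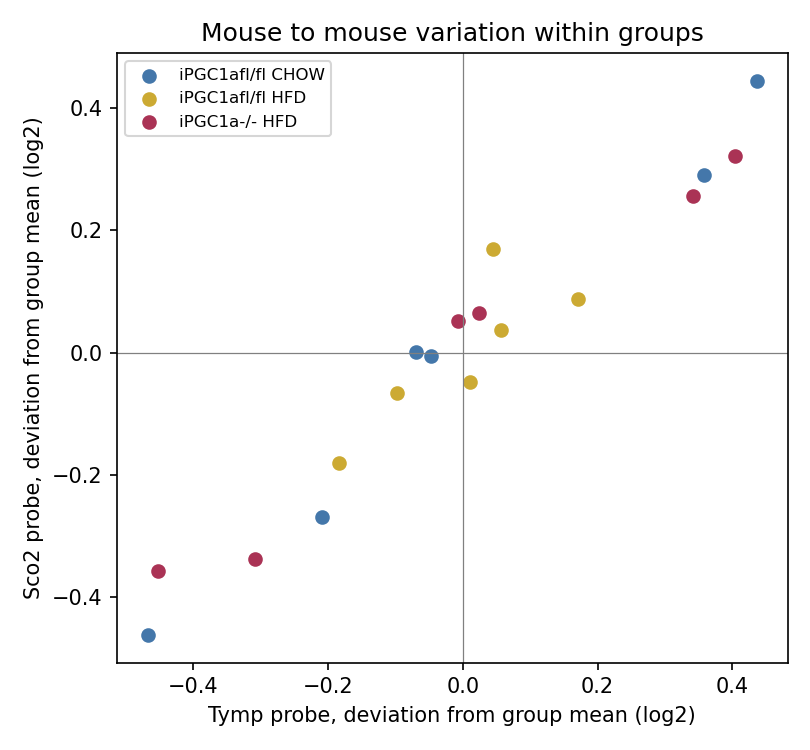
Deviation of each of the 18 mice from its group mean (log2), *Tymp* probe on the horizontal and *Sco2* probe on the vertical axis, coloured by group. The points follow a single line in all 3 groups (r = 0.972), and the iPGC1afl/fl HFD mice lie closest to the centre.

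The gap between the probes was nearly constant. *Tymp* lay below *Sco2* by a log2 difference of -0.83 ± 0.05 (SD, n = 6) in iPGC1afl/fl CHOW, -0.84 ± 0.07 (SD, n = 6) in iPGC1afl/fl HFD and -0.74 ± 0.08 (SD, n = 6) in iPGC1a-/- HFD. The gap changed by -0.01 (SE 0.04) with diet and by 0.10 (SE 0.04) with genotype. These gaps set the signals of different probes side by side, so they give no ratio of RNA amounts.

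Among 21443 genes compared by their brightest probe, each of the pair was the closest in pattern to the other, with r of 0.996 over 18 arrays. The group differences for which both were chosen enter this r, so a high rank follows in part from that choice. The genes that came next had a lower r. For *Tymp* they were *Aprt* (r = 0.934), which salvages adenine, then 4930519A11Rik (0.933), *Galm* (0.925), an enzyme of galactose breakdown, and *Abhd17a* (0.924), a depalmitoylating enzyme. For *Sco2* they were *Aprt* (0.926), *Nek6* (0.926), *Abhd17a* (0.925) and *P4hb* (0.924), a protein disulphide isomerase. Of these, *Abhd17a* passed the test by genotype (log2 difference 0.82, SE 0.11, limma adjusted p = 0.00064), with 0.50 (SE 0.11) by diet, under the fold threshold.

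Within groups, the closest gene after its partner was the same for both probes, *Cda*, which encodes cytidine deaminase and like thymidine phosphorylase acts on pyrimidine nucleosides. Its r over the 18 deviations was 0.917 with *Tymp* and 0.867 with *Sco2*. *Gata4*, a transcription factor of the proximal intestine, followed with 0.850 and 0.817, and ENSMUST00000119549 with 0.855 and 0.813. ENSMUST00000121166 stood at 0.874 with *Tymp*, and *Cyp2d12*, a cytochrome P450, at 0.810 with *Sco2*. These are descriptions over 18 arrays that share slides, and both probes may read the same RNA, so a gene close to both is not found independently. *Cda* had a difference of 0.19 (SE 0.15, limma adjusted p = 0.71) by genotype against 1.28 (SE 0.15, limma adjusted p = 6.2e-06) by diet.

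*Ppargc1a* itself was not lower in the arrays labelled iPGC1a-/-. Its brighter probe, at chr5:51848928-51848987, averaged 10.94 ± 0.46 (SD, n = 6) in iPGC1afl/fl CHOW, 11.38 ± 0.07 (SD, n = 6) in iPGC1afl/fl HFD and 11.67 ± 0.26 (SD, n = 6) in iPGC1a-/- HFD. The genotype difference of 0.30 (SE 0.16) missed the test across all probes (limma adjusted p = 0.57), while the exact permutation test of that probe alone gave p = 0.017 (adjusted p = 0.017 over 4 tests) and by diet p = 0.0022 (adjusted p = 0.0058). The dimmer probe, at chr5:51849419-51849478, differed by 0.36 (SE 0.16) in the same direction, with an exact permutation p of 0.0043 by genotype and 0.0043 by diet (adjusted p = 0.0058 for each). Where these probes lie relative to the deleted exons was not determined here, so they do not check the labels. With the pair, *Ppargc1a* had an r of 0.717 (*Tymp*) and 0.724 (*Sco2*) over 18 arrays, and of 0.204 and 0.209 within groups.

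Within 500 kb of the pair the array held 39 other genes, of which 30 passed the filter. By genotype limma called 0 of these, where 0.163% of all gene names were called, so nothing is read from that count. At an unadjusted p under 0.05 there were 2, *Ncaph2* and *Selenoo*, each through the dimmer of its probes. Over all genes, 1997 of 21516 gene names were under 0.05 by genotype, each taken by its brightest probe. Such counts for the neighbours and for the lists below take a gene through any probe. On that basis they cannot be lower, and nothing is read from them. The median genotype difference of the 30 neighbours was 0.07, against 0.01 over all genes. *Ncaph2*, a condensin subunit and the closest neighbour at -1.06 kb, differed by 0.31 (SE 0.16, limma adjusted p = 0.55) by genotype and by -0.16 (SE 0.16, adjusted p = 0.51) by diet. Its dimmer probe, at -8.01 kb, went the other way by genotype, with -0.21 (SE 0.09). By diet 1 of 30, or 3.33%, was called, against 9.1% of all gene names. That gene was *Odf3b*, an outer dense fibre gene 5.6 kb away on the side of the *Tymp* start, which rose by 0.92 (SE 0.11, limma adjusted p = 7.3e-06), from 11.16 ± 0.32 (SD, n = 6) to 12.07 ± 0.07 (SD, n = 6). By genotype *Odf3b* differed by 0.14 (SE 0.11, adjusted p = 0.71). *Klhdc7b* at 16.8 kb (0.28), *Syce3* at 18.3 kb (0.30), *Cpt1b*, the muscle form of carnitine palmitoyltransferase, at 44.5 kb (0.34), and *Chkb*, a choline kinase, at 54.9 kb (0.19) had smaller differences by diet and were under the fold threshold, with limma adjusted p of 0.048, 0.054, 0.0079 and 0.13. *Lmf2* at -20.6 kb (-0.01), *Miox* at -34.9 kb (0.21) and ENSMUST00000168646 at 58.5 kb (0.11) were not called either. The probes of *Sbf1* differed by 0.09 at -71.2 kb and by -0.20 at -83.6 kb, the latter with an adjusted p of 0.049 and under the fold threshold.

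**Figure D3:**
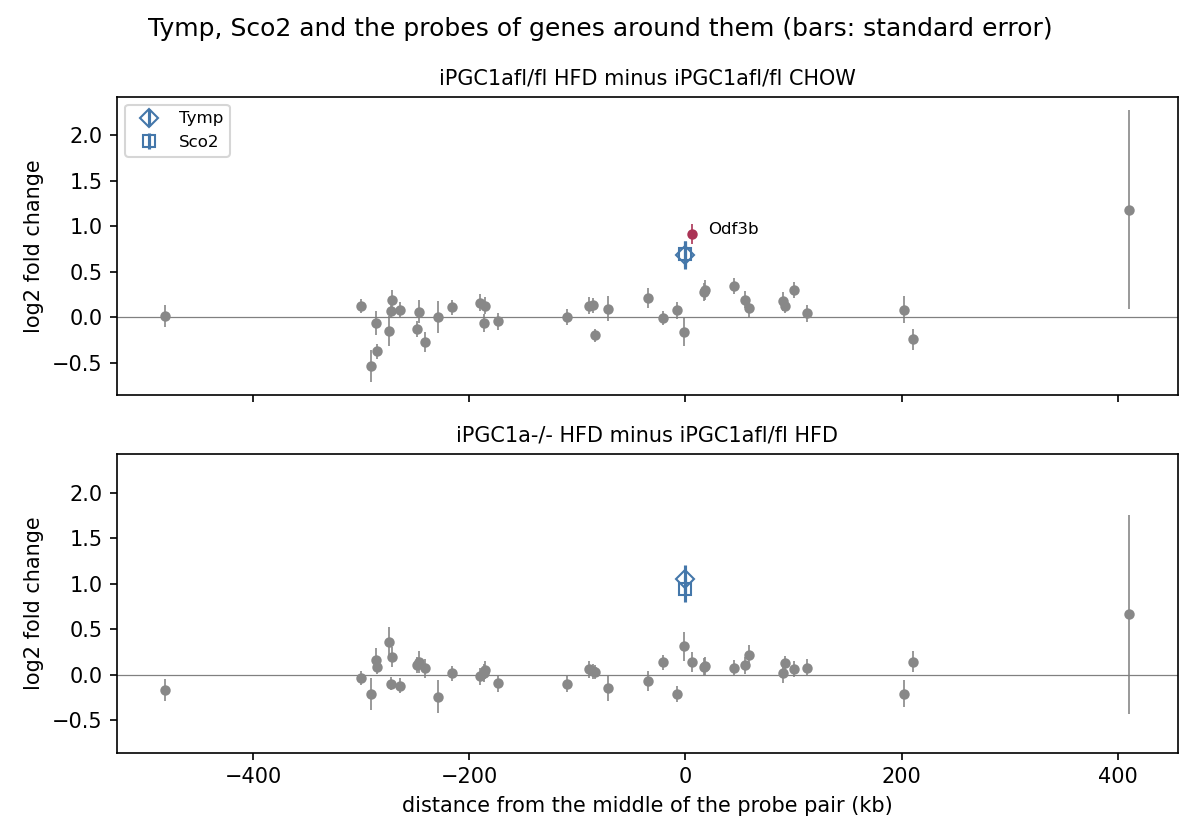
Log2 fold change (vertical axis, bars show the standard error) of each of the 40 tested probes of neighbouring genes against its distance in kb from the middle of the probe pair, by diet (top) and by genotype (bottom), with *Tymp* and *Sco2* at 0, called probes in red and others in grey. Only *Odf3b* is called by diet, and by genotype all 40 probes lie below the pair, with the imprecise point at the far right, *Syt10* (0.66, SE 1.09), the nearest to it.

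Around thymidine phosphorylase, genes of pyrimidine nucleoside uptake, salvage and breakdown changed with diet in both directions. Of 30 tested, 4 rose and 3 fell by diet, where 3.53% of all gene names rose and 5.58% fell, and their median difference was -0.12 against 0.00 over all genes. *Slc28a1*, the concentrative transporter for pyrimidine nucleosides, rose by 2.77 (SE 0.19, limma adjusted p = 8.4e-09). *Cda* rose by 1.28, and the enzymes of uracil and thymine breakdown *Dpyd* and *Upb1* rose by 0.70 (SE 0.12, adjusted p = 0.00035) and 0.81 (SE 0.15, adjusted p = 0.00071). *Upp1*, uridine phosphorylase, which handles uridine much as thymidine phosphorylase handles thymidine, fell by 1.70 (SE 0.23, adjusted p = 2.6e-05). *Nt5e*, the ectonucleotidase CD73, fell by 0.85 (SE 0.29, adjusted p = 0.041), and *Slc28a2*, which takes up purine nucleosides, fell by 0.68 (SE 0.23, adjusted p = 0.035).

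By genotype limma called 0 of the 30, with 3 at an unadjusted p under 0.05, and the list's median difference was -0.01 against 0.01 over all genes. *Upp1* differed by -0.37 (SE 0.23) there and *Slc28a1* by 0.03 (SE 0.19). The kinases that return thymidine to the nucleotide pool passed in neither contrast. *Tk1*, the cytosolic form, differed by -0.31 (SE 0.19) by diet and -0.05 (SE 0.19) by genotype, and *Tk2*, the mitochondrial form, by -0.37 (SE 0.09) and 0.04 (SE 0.09). *Tyms*, thymidylate synthase, differed by -0.50 (SE 0.17) by diet and -0.04 (SE 0.17) by genotype.

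In adjacent nucleotide pathways, diet called 2 of 13 purine breakdown genes (15.4%) and 3 of 13 genes of pyrimidine and deoxynucleotide synthesis (23.1%), against 9.1% of all gene names. Of the first, *Ampd1* rose by 0.97 (SE 0.14) and *Ampd3* fell by 0.72 (SE 0.15) with diet, both AMP deaminases. Of the second, *Rrm2*, a ribonucleotide reductase subunit, and *Shmt2*, the mitochondrial serine hydroxymethyltransferase, fell by 0.83 (SE 0.15) and 0.85 (SE 0.17) with diet. Of 27 genes that maintain mitochondrial DNA, *Fbxl4* rose by 0.76 (SE 0.08) and no other was called by diet (3.70%). *Tfam*, which packages mitochondrial DNA, differed by -0.25 (SE 0.11) by diet and -0.01 (SE 0.11) by genotype. By genotype limma called 0 genes in these lists, with 3, 1 and 6 at an unadjusted p under 0.05.

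Of 28 cytochrome c oxidase assembly genes, 1 rose with diet (3.57%, against 3.53% of all gene names), *Cox16*, through one of its 4 probes, the brightest of which differed by 0.37 (SE 0.07). By genotype limma called 0, with 9 at an unadjusted p under 0.05 through any probe. Over all gene names 1997 of 21516 were under 0.05 by their brightest probe. Of the 28 genes, 4 had a positive genotype difference, with a median of -0.09 against 0.01 over all genes. *Cox11*, another copper chaperone of the complex, differed by -0.42 (SE 0.09, limma adjusted p = 0.045) by genotype, opposite in sign to *Sco2* and under the fold threshold. *Sco1*, the paralogue that acts with *Sco2* on the same copper site, differed by 0.10 (SE 0.09) by diet and 0.02 (SE 0.09) by genotype. *Cox17*, which hands copper to both, differed by 0.09 (SE 0.11) and 0.01 (SE 0.11). *Surf1* differed by -0.14 (SE 0.07) and 0.15 (SE 0.07), and *Cox10*, which makes haem for the complex, by -0.33 (SE 0.13) and -0.44 (SE 0.13).

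Of the subunits of the complex (15 tested) *Cox7a1* rose by 0.78 (SE 0.12) with diet. By genotype *Cox6b2*, a subunit form best known from testis, rose by 0.59 (SE 0.11, limma adjusted p = 0.024), the single pathway gene of 201 called by genotype, or 0.498%. The subunits' median genotype difference was -0.19, and 3 of 15 were positive. The *Cox6b2* call was lost without any of 8 single arrays, among them iPGC1afl/fl HFD replicate 2 and iPGC1a-/- HFD replicate 6, and also with the authors' log2 values, quantile normalisation, normexp, array weights or the replicate number as a block. Of 13 copper transport and cuproprotein genes, *Slc31a1*, the copper importer, rose by 0.62 (SE 0.10) and *Steap1*, a metalloreductase, fell by 0.63 (SE 0.15) with diet, and by genotype limma called 0, with 3 at an unadjusted p under 0.05. No gene of the Pgc1 coactivators and nuclear respiratory factors (10 tested) was called in either contrast, with 7 at an unadjusted p under 0.05 by diet and 3 by genotype. Of these 10, the estrogen-related receptor *Esrra* missed only the fold threshold. It differed by -0.40 (SE 0.08, limma adjusted p = 0.049) by genotype and 0.34 (SE 0.08, adjusted p = 0.0056) by diet. Its dimmer probe differed by -0.37 (SE 0.10, adjusted p = 0.21) by genotype.

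*Tymp* is known to be raised by interferon gamma, and *Sco2* by p53. Of 31 interferon gamma response genes 24 fell with diet, where 5.58% of all gene names were called lower. The list's median diet difference was -1.02, against 0.00 over all genes. The transactivator of MHC class I *Nlrc5* had a log2 difference of -2.50 (SE 0.33), the immunity-related GTPases *Igtp* and *Irgm2* of -2.13 (SE 0.43) and -1.99 (SE 0.35), the guanylate-binding proteins *Gbp2* and *Gbp8* of -1.79 (SE 0.21) and -1.70 (SE 0.20), and *Ido1*, which degrades tryptophan, of -1.47 (SE 0.16). By genotype limma called 0 of them, with 4 at an unadjusted p under 0.05 and a median of -0.03. All 11 tested markers of T cells and intraepithelial lymphocytes fell with diet, with a median difference of -1.68, as did 7 of 9 markers of B and plasma cells. Their part in the interferon list was not tested, nor was a part of interferon gamma in the signal of the pair. Of 21 p53 targets, 1 rose with diet, *Btg2*, by 0.64 (SE 0.18), and 1 fell, *Aen*, through 3 of its 5 probes (the brightest differed by 0.01, SE 0.13), while by genotype limma called 0, with 1 at an unadjusted p under 0.05. Over all 10 pathway lists 43 of 201 genes, or 21.4%, were called by diet, against 9.1% of all gene names, and outside the interferon list 19 of 170, or 11.2%. By genotype 28 of the 201 were at an unadjusted p under 0.05 by their brightest probe, against 1997 of all 21516 gene names.

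Cell markers also moved with diet. All 13 enterocyte markers were well above background in all 18 arrays, as were all 11 markers of T cells and intraepithelial lymphocytes, while of the stroma and vessel markers *Col1a1*, *Pdgfra*, *Cdh5* and *Kdr* were below the filter. In bulk cells, fewer cells of a type and less RNA per cell cannot be told apart. The enterocyte markers, which include the enzymes *Alpi* and *Treh* and the apolipoprotein *Apoa4*, had a mean z score of -0.86 (range -2.06 to -0.16) in iPGC1afl/fl CHOW, 0.25 (-0.27 to 0.66) in iPGC1afl/fl HFD and 0.60 (0.32 to 1.05) in iPGC1a-/- HFD. The markers of ileal enterocytes, which include bile acid transporters, had overlapping ranges, with a mean z score of 0.11 (-0.76 to 1.02), 0.01 (-0.41 to 0.34) and -0.12 (-0.66 to 0.53). Of 7 tested 1 rose and 2 fell with diet, and their diet differences ran from -1.07 to 2.47. Of 13 enterocyte markers 4 rose with diet and none was called by genotype, with 1 at an unadjusted p under 0.05. With diet 6 of 8 goblet cell, 4 of 9 dividing cell and 3 of 9 villus tip markers fell, where 5.58% of all gene names did. The villus tip list shares *Nt5e* and *Slc28a2* with the pyrimidine nucleoside list, and both are among its falls. Of 10 tested macrophage and dendritic cell markers 2 fell with diet, and the defining markers *Adgre1*, *C1qa* and *Fcgr1* were below the filter. By genotype, 0 of 6 tuft cell (median -0.45), 0 of 6 Paneth cell (-0.07) and 1 of 8 crypt stem cell markers (-0.12) had a positive difference. Positive differences were found in 10 of 11 markers of T cells and intraepithelial lymphocytes (0.25) and 8 of 9 of B and plasma cells (0.31). Over the 13 cell type lists limma called 0 of 111 marker genes by genotype, with 12 at an unadjusted p under 0.05. Nothing is read from the 12, as 1997 of all 21516 gene names were under 0.05 by their brightest probe. The part of cell makeup in the differences of the pair was not tested.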

How the data were processed

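Cy3-labelled RNA of 18 ileum samples was hybridised to Agilent SurePrint G3 Mouse GE v2 arrays. The authors deposited spot intensity values from Agilent Feature Extraction 10.10.1.1 per array, not normalised between arrays, and a table of their normalised log2 values for 33095 probes (filtered, corrected for washing bath and labelling serial, qsmooth). Those batches are not named in the labels, so that correction was not repeated. No column of values lacked a sample.

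Control spots and flagged outliers (46 to 153 on an array) were dropped, and repeat spots of a probe were averaged. Per array 56.3% to 62.3% of probes were well above background. A probe was tested if it passed this flag in 5 or more of the 6 arrays of some group. Log2 median signals went through an own version of qsmooth (window 0.05), and limma 3.58.1 in R 4.3.3 fitted all 3 groups together over 32726 probes (Benjamini-Hochberg). Calling a gene took 1 probe or more with adjusted p at or under 0.05 and fold over 1.5. Its printed values are those of its brightest probe. On simulated data with 200 changed probes, 92.5% of those with a log2 change of 1 were recovered in the diet contrast and 97.0% in the genotype contrast. The number of arrays limits the precision. The p-values treat these mice as independent. Nothing in the labels gives cage or litter, so that independence could not be checked.

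Names follow the array files, updated through RefSeq synonyms (1110 names). Array coordinates are mm9, and RefSeq sequences are GRCm38.p6, used for names, spans and upstream windows only. The members and all gene lists were chosen with earlier results of these data known. Named genes are the pair, *Ppargc1a*, the called genes of each pathway list (at most 6, by size), 11 set pathway genes, the 10 nearest neighbours and any called, and the 5 genes most like each member. *Slc28a2*, *Cox11*, *Esrra*, *Selenoo*, *Syt10* and the named markers lie outside this rule and were chosen after their values were seen. One gene that the rule names is not reported here. Alternatives covered the signal column, background correction, normalisation, the authors' values, filter, slide, replicate number, samples fitted, variance model, array weights and single arrays left out. Plots were drawn with matplotlib in Python.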

Additional observations from a re-analysis of the deposited data

Results flagged for a closer look

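No group of *Tymp* or *Sco2* values held a mouse far from the others. Among 56 named genes, 168 groups of 6 were examined and 11 held a mouse set apart from the other 5, where chance gives about 1 in 20. On the low side in iPGC1afl/fl CHOW, replicate 4 stood apart for *Dpyd* (10.62, others 11.27 to 11.51) and *Upb1* (8.07, others 8.97 to 9.21), and the same mouse was high for *Surf1* (11.62, others 11.43 to 11.47). It was also the lowest of its group for *Tymp* and *Sco2*. In iPGC1afl/fl HFD, *Ncaph2* was low in replicate 2 (9.13, others 9.97 to 10.18). In that group the high values were *Slc28a1* in replicate 6 (13.45, others 12.31 to 12.66), *Cox6b2* in replicate 5 (9.19, others 8.71 to 8.86), *Gbp8* in replicate 5 (5.71, others 4.93 to 5.21) and *Lmf2* in replicate 4 (8.97, others 8.63 to 8.74). In iPGC1a-/- HFD, *Sco1* was low in replicate 4 (8.43, others 8.63 to 8.73), and replicate 6 was high for *Chkb* (12.78, others 12.24 to 12.44) and *Tk2* (6.11, others 5.85 to 5.94).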

How the results depend on the processing

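Both probes kept the direction of both differences in every alternative run, and none moved a difference by more than the spread between mice. Over the alternatives other than single arrays, *Tymp* ranged from 0.55 to 0.78 by diet and 0.94 to 1.26 by genotype, and *Sco2* from 0.55 to 0.81 and 0.84 to 1.15. The slides left out in turn were an alternative chosen after seeing the data. Without single arrays the ranges were 0.59 to 0.78 and 0.97 to 1.14 for *Tymp*, 0.60 to 0.79 and 0.88 to 1.02 for *Sco2*, and 0.965 to 0.981 for their within-group correlation.

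Without single arrays, 1739 to 2190 genes were called by diet and 24 to 45 by genotype, 40 to 50 and 0 to 1 pathway genes, and 1 to 2 and 0 neighbours. The second neighbour was called without iPGC1afl/fl CHOW replicate 3 or iPGC1afl/fl HFD replicate 4. The pathway gene called by genotype, *Cox6b2*, was lost without iPGC1afl/fl HFD replicate 1, 2, 3, 4 or 6, or iPGC1a-/- HFD replicate 1, 2 or 6. With the processed signal 3005 genes and 2 neighbours were called by diet. Without a fold threshold, the calls by diet were 5873 genes, 95 pathway genes and 7 neighbours, and by genotype 58 genes and 3 pathway genes. Pathway genes called by genotype were 0 with normexp, quantile normalisation, the authors' log2 values, array weights or the replicate block, and 2 with only the groups compared. The cause of these shifts was not tested.

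Of 18 correlations between the deviations of same-numbered mice, 9 exceeded 0.1 (median 0.10, range -0.22 to 0.35). Mice with different numbers were not compared, so whether a shared number stands for a shared factor was not tested. With the replicate block 1970 genes were called by diet and 31 by genotype, and *Tymp* differed by 0.68 and 1.05 (SE 0.13, against 0.15 without the block). The mean over several probes was not run because each member has 1 probe.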
